A study of Mus musculus with 6 samples.

Results

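The unfolded protein response genes studied here are 10 mouse genes, chosen by their function, with earlier results of these data known: the stress sensors Eif2ak3, Ern1 and Atf6, the transcription factors Atf4, Xbp1 and Ddit3, the feedback regulator Trib3 and the endoplasmic reticulum chaperones Hspa5, Hsp90b1 and Calr. Their H3K27ac was read in B16 F10 cells, a mouse melanoma line that had been seeded at 100 cells per cm2 and taken on day 5 of a model in which the culture becomes pigmented. Low pigment (LP) and high pigment (HP) cells had been separated from the same culture by side scatter in a flow cytometer and fixed with formaldehyde. Side scatter stands in for pigment in this sort, and all groups are the same line under the same treatment. There were 2 LP and 2 HP libraries, and an IgG library of unsorted cells for each replicate number served the authors as the control for peak calling. The merged peaks of the 4 H3K27ac lists gave 182956 regions, of which 109950 touched one of 21924 protein-coding genes or the 3 kb on either side, and 74 touched the 10 genes.

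When unfolded proteins build up in the endoplasmic reticulum, the chaperone Hspa5 (BiP) leaves the sensors in the membrane. Eif2ak3 (PERK) then slows translation and favours that of Atf4, Ern1 (IRE1) splices the Xbp1 message, and Atf6 moves to the Golgi, where it is cut into a transcription factor. Pigment cells make large amounts of glycosylated melanosomal enzymes in the same compartment. H3K27ac, the acetylation of lysine on the tail of histone H3, marks active promoters and enhancers, so it shows which of these genes were in an active chromatin state and not how much protein was active.

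All 10 genes carried an H3K27ac region at the promoter in all 4 libraries, a promoter region being one within 1 kb of the transcription start site (TSS) of a protein-coding transcript in GENCODE for GRCm38. No promoter passed the test of HP against LP, given the spread between libraries. The adjusted p was at most 0.05 for 0 of 10 promoters (limma with Benjamini-Hochberg adjustment over 12084 regions called in all 4 libraries), where 4.01% of all regions were called higher in HP and 0% lower. The lowest adjusted p by limma was 0.0821, at Calr. For Ddit3 the value tested is that of a summit near the start of its neighbour Mbd6, as described below. Without HP replicate 1, 5 of 10 passed (Calr, Atf6, Hsp90b1, Hspa5 and Ddit3), beside 56.3% of the 12322 regions then tested, with the lone HP library assumed to vary like LP. Without any other single library 0 of 10 passed. Both HP libraries lay above both LP libraries at 5 of 10 promoters (Calr, Hsp90b1, Eif2ak3, Ern1 and Trib3), while 73.9% of 8988 protein-coding promoter regions did so. Both HP libraries lay below both LP libraries at 0 of 10 and at 0.0668% of promoter regions. The unadjusted p was under 0.05 for 3 of 10 (Calr, Hsp90b1 and Atf6), beside 36.2% of all regions called higher by that rule.

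The value compared is the pileup, the number of fragments that cover a peak's summit, scaled to 1000000 fragments of its library (scaled pileup). The libraries held between 11467942 and 15353176 fragments, so 1 fragment was worth 0.0651 to 0.0872. A region's value was that of its highest summit. The median log2 ratio of HP over LP was 0.92 over all 12084 regions, and the call of a rise in HP at any gene is read against that shift. With each library centred on its median 0 regions were called, and with the replicate number as a block 88 were called in place of 485. A permutation test of 2 against 2 libraries cannot give a two-sided p below 0.33. Sources do not say that the replicates were separate cultures, so the p-values measure only the spread between these libraries. A lower pileup from fewer acetylated cells and from less acetylation per cell cannot be told apart. Of 8 melanocyte marker promoters 7 were called in all 4 libraries (Slc45a2 in 3), with summed scaled pileups of 12.4 and 11.5 in LP and 23.8 and 34.5 in HP. The sum of LP replicate 1 lacks Slc45a2, which had no peak there. Among the markers called in both libraries of replicate 1, Tyrp1 alone was lower in HP (1.22) than in LP (1.66). No marker promoter had an adjusted p at most 0.05 by limma, the lowest being 0.0706 at Pmel. The part of these markers in the results below was not tested. Of 10 markers of leukocytes, epithelium, endothelium, fibroblasts, neurons and hepatocytes, 0 were called in all 4 and 7 had no peak in any library. The other 3, Epcam, Pecam1 and Col1a1, had a peak in 1 library each, with summed levels of 0 and 0.651 in LP and 0.697 and 0.702 in HP.

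**Figure D1:**
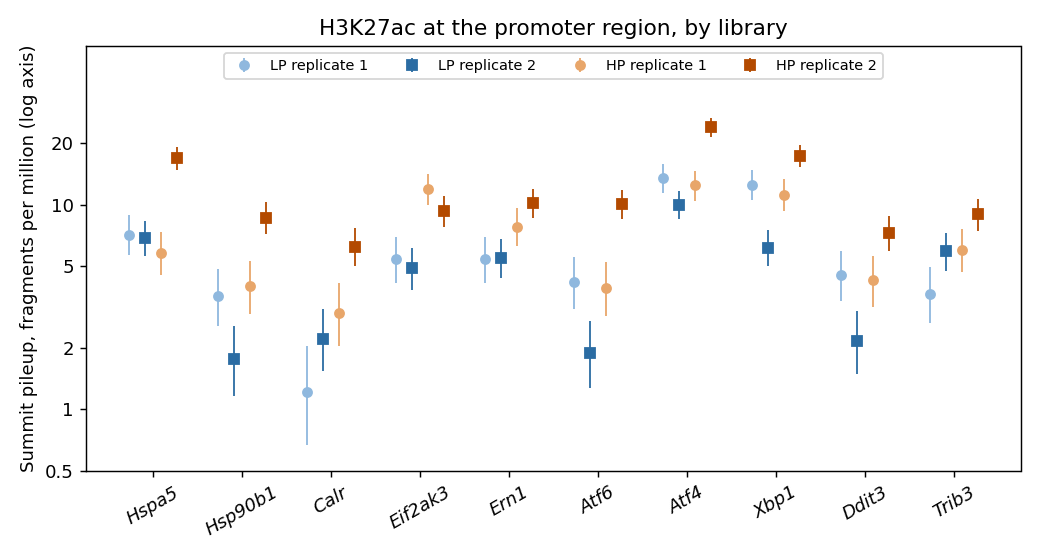
Scaled summit pileup (fragments per 1000000, log axis) at the promoter region of each gene. Each point is 1 library, with blue for LP and orange for HP, circles for replicate 1 and squares for replicate 2, and bars give the exact 95% Poisson interval of the fragments, which covers counting error only. HP replicate 2 is the highest library at 9 of 10 genes, and HP replicate 1 is the highest at Eif2ak3.

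The 3 chaperones share a known element of sequence, and its presence in them is described here and was not tested. The endoplasmic reticulum stress response element (ERSE, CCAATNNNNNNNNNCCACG) is known as the site that Atf6 binds together with NF-Y. It was searched on both strands of the RefSeq promoters of GRCm38.p6, 250 bases before to 50 bases after each start. A match stood in 39 of 32851 promoters (0.119%), among them 3 of the 9 genes of the set with an entry in that table, which are Hspa5, Hsp90b1 and Calr. The 250 bases before the RefSeq start of each are shown because the called peaks leave different parts of them uncovered. That start lies 120 bp (Hspa5), 65 bp (Hsp90b1) and 3 bp (Calr) downstream of the GENCODE TSS, from which the peak distances below are counted. They are written 5′ to 3′ on the strand of the gene, with the ERSE in capitals. Hspa5 lies on the plus strand (chr2:34771840-34772089), Hsp90b1 on the minus strand (chr10:86705445-86705694) and Calr on the minus strand (chr8:84846932-84847181). In Calr and in the second site of Hsp90b1 the element runs opposite to the gene, so that it reads from CGTGG to ATTGG.
Hspa5: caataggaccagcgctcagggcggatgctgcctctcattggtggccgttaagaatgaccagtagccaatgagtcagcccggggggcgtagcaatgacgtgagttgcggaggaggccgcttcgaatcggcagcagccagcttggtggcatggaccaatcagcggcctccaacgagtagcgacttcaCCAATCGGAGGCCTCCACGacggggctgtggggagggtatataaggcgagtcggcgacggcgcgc
Hsp90b1: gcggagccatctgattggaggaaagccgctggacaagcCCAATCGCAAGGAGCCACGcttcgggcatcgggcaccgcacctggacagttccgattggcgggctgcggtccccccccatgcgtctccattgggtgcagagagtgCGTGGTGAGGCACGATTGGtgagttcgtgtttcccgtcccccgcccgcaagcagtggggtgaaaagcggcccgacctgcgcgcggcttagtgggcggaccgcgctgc
Calr: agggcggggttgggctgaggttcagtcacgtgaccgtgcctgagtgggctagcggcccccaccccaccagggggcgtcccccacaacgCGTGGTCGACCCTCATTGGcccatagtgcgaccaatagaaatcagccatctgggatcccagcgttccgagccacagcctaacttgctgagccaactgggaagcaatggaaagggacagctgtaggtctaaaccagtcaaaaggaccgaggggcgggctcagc

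Besides the full element, these stretches held further CCAAT boxes. On either strand there were 4 in Hspa5, 5 in Hsp90b1 and 2 in Calr, those of the ERSE included. The GC content of the 3 stretches was 62.4%, 66.8% and 62.0%.

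Hspa5 encodes BiP, the main chaperone of the endoplasmic reticulum and the protein that holds the sensors inactive. Its promoter region (chr2:34771177-34772922) had scaled pileups of 7.15 and 6.90 in LP and 5.83 and 17.0 in HP, from 82, 106, 67 and 242 fragments. HP replicate 1 was the lowest and HP replicate 2 the highest of the 4 libraries, so the groups overlapped. The log2 ratio was 0.50 ± 0.54 (SE, n = 2 against 2), the lowest of the 10 genes, with an adjusted p of 0.407 by limma with Benjamini-Hochberg adjustment, and without HP replicate 2 it was −0.27. The highest summit lay between 340 and 379 bp downstream of the GENCODE TSS in every library. In LP replicate 1 and HP replicate 1 the region was 2 peaks, and the upstream ones had summits at −341 and −380 bp with scaled pileups of 4.80 and 4.88. The stretches of 286 and 403 bp between these peaks hold the GENCODE TSS, with the ERSE at their downstream side, 55 to 73 bp after that TSS. Counted from the RefSeq start, the element lies upstream, at −65 to −47 bp. The element touched the edge of a called peak in LP replicate 1, and it lay between the peaks in HP replicate 1. In LP replicate 2 and HP replicate 2 a single peak ran across it.

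Hsp90b1 encodes Grp94, the heat shock protein of the Hsp90 family in the endoplasmic reticulum. Its promoter region (chr10:86703662-86705568) had scaled pileups of 3.58 and 1.76 in LP and 4.01 and 8.63 in HP, from 41, 27, 46 and 123 fragments. Both HP libraries lay above both LP libraries, although LP replicate 1 and HP replicate 1 were close. The log2 ratio was 1.23 ± 0.54 (SE, n = 2 against 2), with 0.16 in replicate 1 and 2.29 in replicate 2, and an adjusted p of 0.106 by limma with Benjamini-Hochberg adjustment. A second region upstream (chr10:86705799-86706949) had its highest summits at −762 to −816 bp. The start of Ttc41, which lies on the opposite strand at −302 to −335 bp, was within 1 kb of both regions. Scaled pileups in this upstream region were 0.872 and 1.17 in LP and 1.83 and 3.16 in HP, so the groups did not overlap, and the log2 ratio was 1.25 with an adjusted p of 0.103 by limma with Benjamini-Hochberg adjustment. No library called a peak over the stretch between both regions, which was 703 and 675 bp long in LP, against 341 and 292 bp in HP. The farther of the 2 ERSE matches lay in this stretch in all 4 libraries. The nearer one was under the edge of the downstream peak in LP replicate 1 and HP replicate 1 and in the stretch in the other libraries.

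Calr encodes calreticulin, the lectin chaperone of glycoprotein folding. Its promoter region (chr8:84845752-84848258) had scaled pileups of 1.22 and 2.21 in LP and 2.96 and 6.24 in HP, from 14, 34, 34 and 89 fragments. Both HP libraries lay above both LP libraries, but the interval of HP replicate 1 (2.05 to 4.14, exact Poisson, 95%) overlapped that of LP replicate 2 (1.53 to 3.09). For Calr the log2 ratio was 1.39 ± 0.54 (SE, n = 2 against 2), the highest of the 10 genes, and the adjusted p was 0.0821 by limma with Benjamini-Hochberg adjustment. The called peaks covered 167 and 949 bp of the region in LP, against 1745 and 2383 bp in HP. Starts of 1700122E12Rik, a gene on the opposite strand, lie at −254 to −504 bp in the same region, and the covered bases were not divided between both genes. The ERSE lay outside the called peaks in 3 libraries. It was in a stretch of 371 bp in LP replicate 2 and of 306 bp in HP replicate 1, and a single peak covered it in HP replicate 2.

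**Figure D2:**
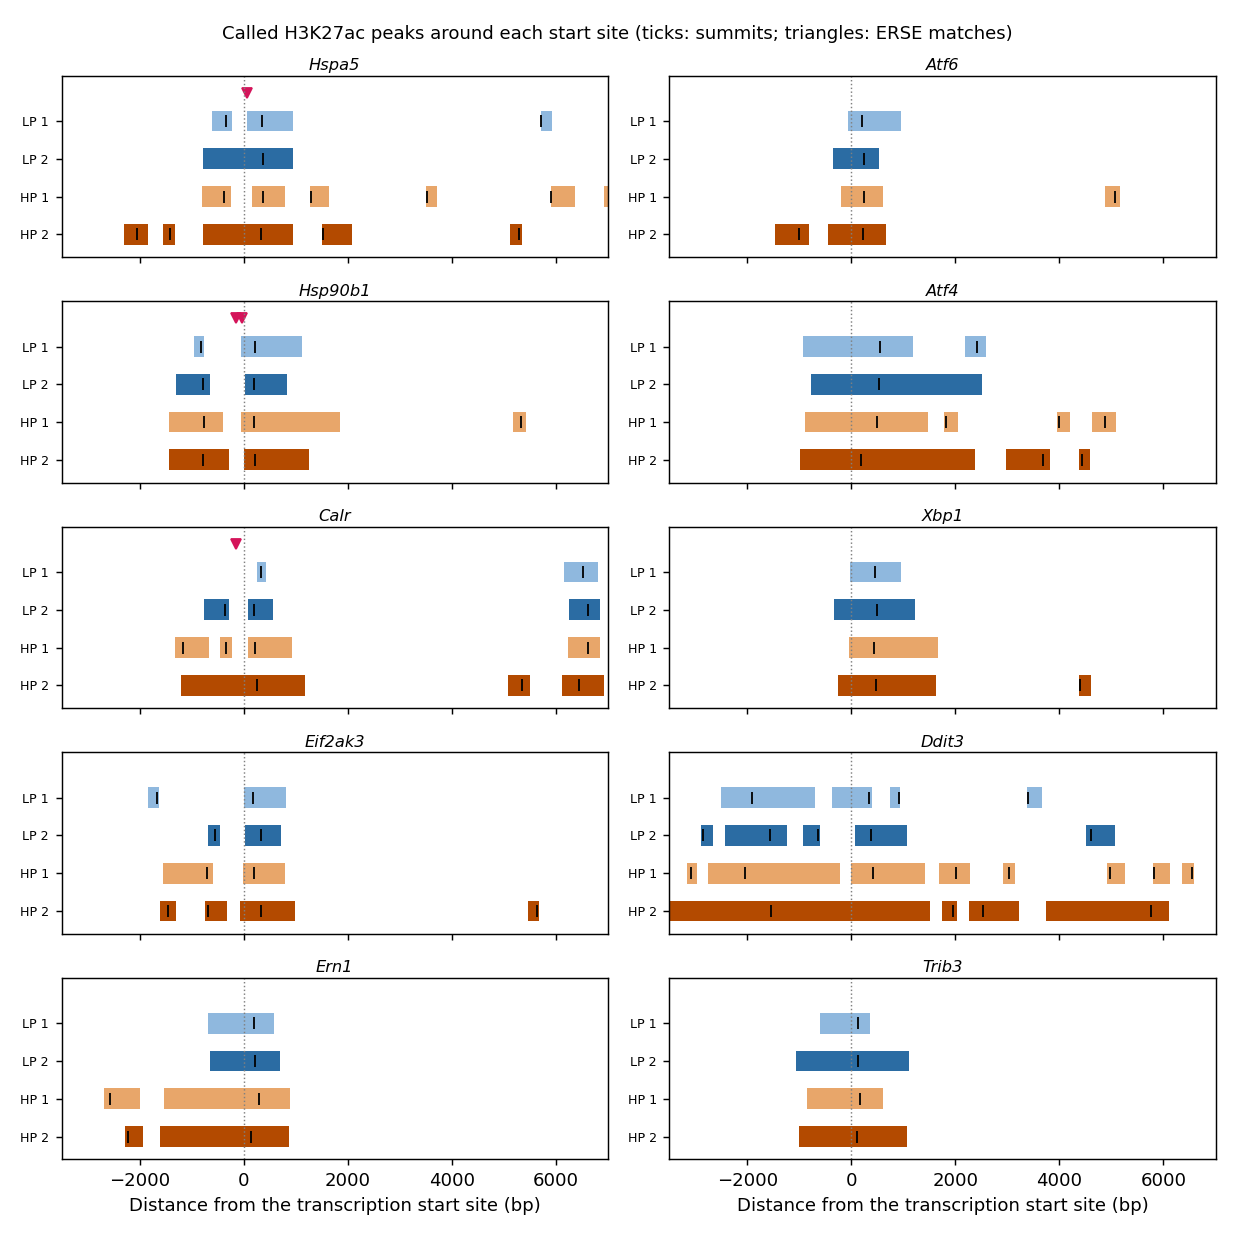
Called H3K27ac peaks around the GENCODE transcription start site of each gene. The horizontal axis is the distance from the start in bp along the gene's strand, each row is 1 library, black ticks are summits and triangles are ERSE matches. Among the chaperones, an uncovered stretch lies between peaks near the start at Hsp90b1 in all 4 libraries. It is also seen at Hspa5 in LP replicate 1 and HP replicate 1, and at Calr in LP replicate 2 and HP replicate 1. At Hsp90b1 the downstream peak covers the start itself in LP replicate 1 and HP replicate 1.

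The sensors had promoter regions of middle to high level. Eif2ak3 encodes PERK, the kinase that phosphorylates the initiation factor eIF2alpha. Its promoter region (chr6:70844444-70845502) had scaled pileups of 5.41 and 4.88 in LP and 11.9 and 9.33 in HP, from 62, 75, 137 and 133 fragments. This was the only one of the 10 genes at which HP replicate 2 was below HP replicate 1, and the lower HP library was still above both LP libraries, with 95% Poisson intervals that did not overlap between groups. HP over LP gave a log2 ratio of 1.04 ± 0.54 (SE, n = 2 against 2), with 1.14 in replicate 1 and 0.93 in replicate 2, and the adjusted p was 0.144 by limma with Benjamini-Hochberg adjustment. A weaker region upstream (chr6:70842899-70844205), also within 1 kb of the start, had no peak in LP replicate 1 and scaled pileups of 0.716 in LP replicate 2 and 1.31 and 1.26 in HP. An intronic region (chr6:70877698-70878101) was called in LP replicate 2 at 0.716 and in HP replicate 2 at 0.631. An exonic region (chr6:70892552-70892844) was called at 0.872 and 0.847 in LP and in neither HP library.

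Ern1 encodes IRE1alpha, the kinase and endoribonuclease that splices Xbp1. Its promoter region (chr11:106486946-106489437) had scaled pileups of 5.41 and 5.47 in LP and 7.84 and 10.2 in HP, from 62, 84, 90 and 145 fragments. The LP libraries were almost equal and both HP libraries were above them. Its log2 ratio was 0.72 ± 0.54 (SE, n = 2 against 2), lower than the median of all regions, with an adjusted p of 0.265 by limma with Benjamini-Hochberg adjustment. The peak was 1257 and 1343 bp long in LP, against 2423 and 2473 bp in HP, and a separate region in the upstream flank (chr11:106489769-106490529) was called only in the HP libraries, at 0.871 and 0.702.

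Atf6 encodes the membrane-bound precursor of the transcription factor that binds the ERSE. Its promoter region (chr1:170866816-170868223) had scaled pileups of 4.19 and 1.89 in LP and 3.92 and 10.1 in HP, from 48, 29, 45 and 144 fragments. LP replicate 1 was above HP replicate 1, so the groups overlapped. The log2 ratio was 1.16 ± 0.54 (SE, n = 2 against 2), but it was −0.095 in replicate 1 and 2.42 in replicate 2, the widest gap of the 10 genes, and the adjusted p was 0.118 by limma with Benjamini-Hochberg adjustment. Atf6 spans 163098 bp and held 20 of the 74 regions, 17 of them called in 1 library. In its introns 1 region (chr1:170728645-170729007) was called in both LP libraries and neither HP library, at 0.610 and 0.716, and another (chr1:170791506-170791846) in both HP libraries and neither LP library, at 0.610 and 0.561.

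The transcription factors Atf4 and Xbp1 were among the highest levels of the set, Atf4 being the highest in all 4 libraries, while Hspa5 exceeded Xbp1 in LP replicate 2 and Eif2ak3 exceeded it in HP replicate 1. Atf4 encodes the factor that drives amino acid and redox genes under stress. Its promoter region (chr15:80254202-80257778), merged over the libraries, runs over the whole gene of 2358 bp. In LP replicate 1 and HP replicate 1 the region was 2 peaks that left part of the gene uncovered. Scaled pileups were 13.5 and 10.0 in LP and 12.5 and 24.0 in HP, from 155, 154, 143 and 342 fragments. LP replicate 1 was above HP replicate 1, so the groups overlapped, and the log2 ratio of 0.57 ± 0.54 (SE, n = 2 against 2) had an adjusted p of 0.354 by limma with Benjamini-Hochberg adjustment. Among the promoter regions of its own library, Atf4 stood at percentiles 96.1 and 99.0 in LP and 96.1 and 98.8 in HP.

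Xbp1 encodes the factor that acts once Ern1 has spliced its message. Its promoter region (chr11:5520317-5522327) had scaled pileups of 12.6 and 6.19 in LP and 11.2 and 17.4 in HP, from 144, 95, 129 and 248 fragments. LP replicate 1 was again above HP replicate 1. For Xbp1 the log2 ratio was 0.67 ± 0.54 (SE, n = 2 against 2), with −0.16 in replicate 1 and 1.49 in replicate 2, and the adjusted p was 0.293 by limma with Benjamini-Hochberg adjustment. Within each library its level stood at percentiles 91.5 to 95.1.

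Ddit3 encodes CHOP, the factor linked to cell death under prolonged stress, and its promoter value is uncertain. The region (chr10:127287273-127292289) also holds the start of Mbd6 on the opposite strand. Starts of the processed transcripts Gm4189, on the opposite strand at 14 to −50 bp, and Gm20492, at −2260 bp, lie there too. The highest summit of the region lay at −1538 to −2050 bp from the Ddit3 start, close to the Mbd6 starts at −1756 to −1921 bp. Scaled pileups at that summit were 4.53 and 2.15 in LP and 4.27 and 7.30 in HP, so the groups overlapped. The log2 ratio of 0.84 ± 0.54 (SE, n = 2 against 2) had an adjusted p of 0.209 by limma with Benjamini-Hochberg adjustment. Separate peaks at the start of Ddit3 itself, with summits 335 to 422 bp downstream, had scaled pileups of 1.48 and 2.08 in LP and 2.70 in HP replicate 1, from 17, 32 and 31 fragments. The signal of these peaks was not divided between Ddit3 and Gm4189. In HP replicate 2 a single peak of 5017 bp covered the starts of Ddit3 and Mbd6 and gave no separate value. Within the gene, an exonic region (chr10:127292467-127294002) was called only in the HP libraries, at 0.871 and 1.05. A further one (chr10:127294516-127296906) had no peak in LP replicate 1 and values of 0.977 in LP replicate 2 and 1.04 and 2.17 in HP. This further region lies within 1 kb of an annotated transcript start of Mars, the methionyl-tRNA synthetase gene. Whether it acts as a promoter of Mars was not tested.

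Trib3 encodes a pseudokinase induced by Atf4 and Ddit3 that restrains them in turn. Its promoter region (chr2:152342931-152345092) was the only region of the gene. Scaled pileups were 3.66 and 5.93 in LP and 6.01 and 8.98 in HP, from 42, 91, 69 and 128 fragments. Both HP libraries lay above both LP libraries, though HP replicate 1 exceeded LP replicate 2 by less than the counting error. For Trib3 the log2 ratio was 0.66 ± 0.54 (SE, n = 2 against 2), with 0.71 in replicate 1 and 0.60 in replicate 2, and the adjusted p was 0.298 by limma with Benjamini-Hochberg adjustment.

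The ratio differed between the replicate numbers. In replicate 1 the median log2 ratio of the 10 promoters was 0.038, and HP was below LP at 5 of 10 (Atf6, Atf4, Xbp1, Ddit3 and Hspa5). The value counted for Ddit3 is that of the summit near the Mbd6 start, and the separate peak at the start of Ddit3 itself was higher in HP replicate 1 (2.70) than in LP replicate 1 (1.48). The median of all promoter regions in replicate 1 was 0.51, with HP below LP at 19.2%. In replicate 2 the median of the 10 was 1.39 and HP was above LP at 10 of 10, while the median of all promoter regions was 1.29 with HP below LP at 0.935%. Between the HP libraries, replicate 2 exceeded replicate 1 by a median log2 of 0.86 at the 10 promoters and 0.67 at all promoter regions. Between the LP libraries, replicate 2 over replicate 1 had medians of −0.29 and −0.12. Over all 10 the median log2 ratio of HP over LP was 0.78, from 0.50 at Hspa5 to 1.39 at Calr, beside 0.89 over all promoter regions. With each library centred on its own median level over the regions, it was −0.23, with 4 of 10 genes above 0 (Calr, Hsp90b1, Atf6 and Eif2ak3) and 6 below.

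**Figure D3:**
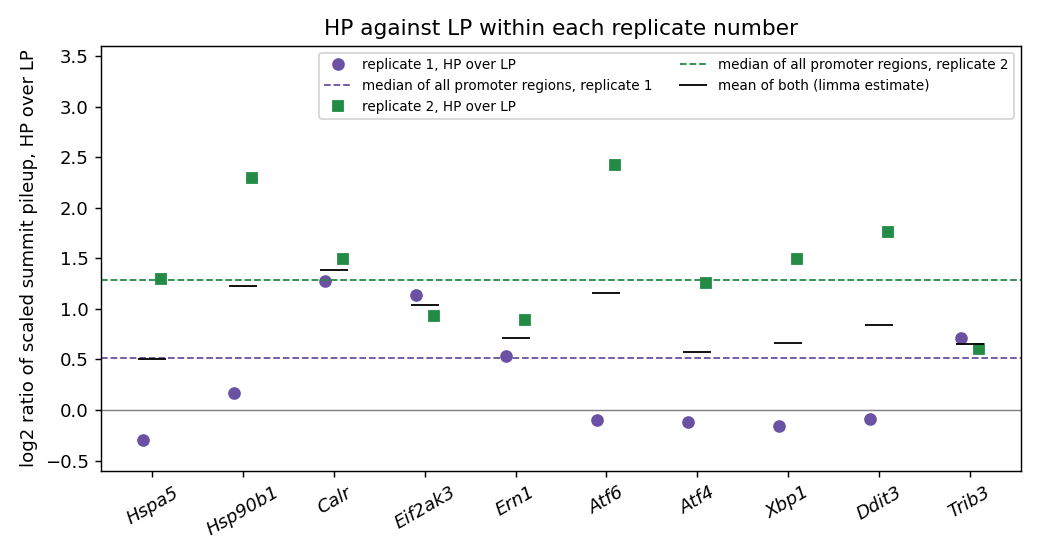
Log2 ratio of scaled summit pileup, HP over LP, at the promoter of each gene. Circles are the ratio of the replicate 1 libraries, squares that of the replicate 2 libraries and bars the limma estimate, and dashed lines are the medians of 8988 promoter regions in each replicate number. All 10 squares are above 0, while 5 of 10 circles are below it.

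Several of the genes were among the promoters of highest level. When the 8988 promoter regions were cut by mean level into 4 groups of 2247, the highest group held 5 of the 10 genes (Eif2ak3, Atf4, Ern1, Xbp1 and Hspa5). In that highest group the HP libraries lay above both LP libraries at 60.8% of promoters and HP was below LP in replicate 1 at 38.1%. In the other groups the HP libraries lay above at 73.2% to 81.4%, and HP was below LP in replicate 1 at 10.2% to 14.6%. Of the 5 genes in the highest group, 2 (Eif2ak3 and Ern1) had both HP libraries above both LP libraries.

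On a scale within each library, the percentile among its promoter regions with a peak, the 10 genes had medians of 72.2 and 85.4 in LP, against 72.2 and 75.4 in HP. Calr stood lowest in LP replicate 1, at 20.4, and at 49.1 in LP replicate 2, with 44.5 and 57.5 in HP. Hsp90b1 had percentiles of 60.2 and 40.4 in LP and 56.2 and 70.6 in HP. Hspa5 had 83.9 and 94.3 in LP and 71.6 and 94.5 in HP. Eif2ak3 had 75.3 and 83.2 in LP and 95.2 and 73.8 in HP. The lists ranked differ in length, from 10279 promoter regions in LP replicate 1 to 14007 in HP replicate 2, so these ranks describe each library and were not compared between groups.

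**Figure D4:**
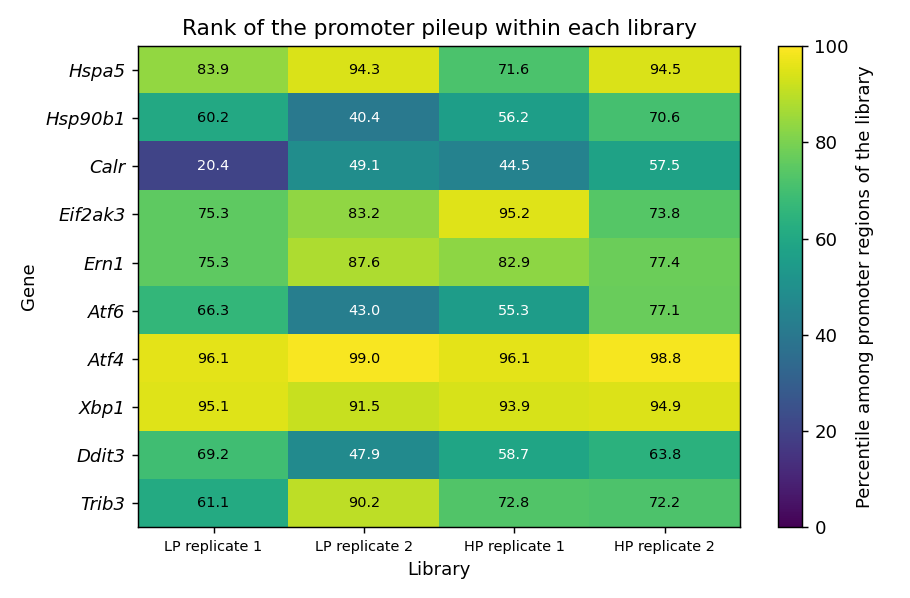
Percentile of the promoter's scaled pileup among all protein-coding promoter regions with a peak in the same library, for each gene (rows) and library (columns). Atf4 is at percentile 96.1 or higher and Calr at 57.5 or lower in every library.

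Away from the promoters the 10 genes had 61 regions, and few recurred. Of the 61, 1 was called in all 4 libraries, 1 in 3 libraries, 9 in 2 and 50 in 1. The single-library regions were 10 and 12 in LP and 10 and 18 in HP. Their summits had between 5 and 25 fragments with a median of 8. Over all 74 regions 68.9% were called in 1 library, beside 76.1% of the regions in the windows of all protein-coding genes. A region called in both HP libraries and neither LP library was found 4 times among the 74, while 4.61% of the regions in the windows of all protein-coding genes had that pattern. These 4 were the upstream flank of Ern1, an intron of Atf6, an exon of Ddit3 and an exon of Hspa5 (chr2:34773253-34774044, at 0.522 and 0.912). The opposite pattern was found 2 times (Eif2ak3 and Atf6), beside 0.256%. Both counts depend on having 2 lists a group, and with 1 LP list left out the opposite pattern was found 14 times (without LP replicate 1) or 12 times (without LP replicate 2). The shares over all protein-coding windows were not computed with a list left out, so these counts are not read as a result about the 10 genes. The other regions of Hspa5 in 2 libraries lay in the downstream flank. One (chr2:34777679-34778336) was called in LP replicate 1 at 0.436 and HP replicate 1 at 0.610, and another (chr2:34780301-34780782) in LP replicate 2 at 0.651 and HP replicate 2 at 0.631. A region with a peak in no library of a group may have had signal under the threshold of the peak caller. Over the windows of all 10 genes there were 29 and 34 peaks in LP and 37 and 41 in HP. The whole lists held 57942 and 66580 peaks in LP and 64759 and 71529 in HP. Over the 10 genes the summed length of peaks was 16863 and 23091 bp in LP, against 27347 and 36977 bp in HP. The summed length over whole lists was not computed. Neither the peak counts nor the lengths are read as a result about the 10 genes.

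The ERSE was shared with further genes of the response. In a wider list of 83 genes in 4 arms, which includes the 10, 71 had a RefSeq promoter and 10 of these held an ERSE. The sites are shown because the bases between both ends differ from gene to gene. They are written 5′ to 3′ along the element, with its fixed ends in capitals, and each name is followed by the site in GRCm38.p6 and its strand.
Hspa5 (chr2:34772025-34772043, plus): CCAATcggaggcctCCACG
Hsp90b1 (chr10:86705638-86705656, minus): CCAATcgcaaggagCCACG
Hsp90b1 (chr10:86705533-86705551, plus): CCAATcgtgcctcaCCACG
Calr (chr8:84847075-84847093, plus): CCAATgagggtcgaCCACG
Canx (chr11:50325800-50325818, minus): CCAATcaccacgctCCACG
Pdia6 (chr12:17266491-17266509, plus): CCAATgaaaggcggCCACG
Dnajc3 (chr14:118937827-118937845, plus): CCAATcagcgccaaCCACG
Creld2 (chr15:88819520-88819538, minus): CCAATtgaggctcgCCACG
Ero1lb (chr13:12565682-12565700, minus): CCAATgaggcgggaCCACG
Syvn1 (chr19:6046532-6046550, plus): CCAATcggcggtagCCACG
Derl3 (chr10:75893242-75893260, minus): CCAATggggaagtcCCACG

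Of these 10 genes, 9 had a promoter region in all 4 libraries, with log2 ratios from 0.18 at Canx to 1.39 at Calr and a median of 0.90. Canx, the membrane-bound partner of Calr, had scaled pileups of 18.6 and 8.92 in LP and 9.67 and 22.1 in HP, so the groups overlapped. Dnajc3, a cochaperone of BiP, had 11.0 and 8.08 in LP and 16.4 and 19.4 in HP, without overlap. Derl3, a component of the channel for degradation, had a peak near its start in HP replicate 1 alone, at 0.610. In all 4 libraries the highest summit of the 9 genes lay downstream of the element, by 204 to 702 bp with a median of 339 bp over 10 sites. Other elements were searched in the same way. ERSE-II (ATTGGNCCACG) stood in 0.0365% of promoters and in 2 list genes, Herpud1 and Dnajb11. The element TGACGTGG, bound by Xbp1 and Atf6, stood in 0.676% of promoters and in 3 list genes, Sec24d, Ube2j1 and Vcp. The C/EBP-ATF element TTGCATCA, read by Atf4, stood in 0.895% of promoters and in 7 list genes. None of these 3 was matched in the 9 promoters of the set.

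Across the wider list, 79 of 83 genes had a promoter region in all 4 libraries, and 1 was called higher in HP (Ufd1), with 0 called lower, beside 4.01% and 0% of all regions. Nupr1 and Derl3 had one in 1 library, Os9 in 3, and Vldlr in none. The HP libraries lay above both LP libraries at 38 of 79, beside 73.9% of all promoter regions. The median log2 ratio of the list was 0.70, against 0.89 for all promoter regions, with 0.13 in replicate 1 and 1.34 in replicate 2. Without the 10 genes, 33 of 69 had both HP libraries above both LP libraries and the median was 0.69. Ufd1, a partner of the segregase Vcp in degradation, had scaled pileups of 1.57 and 2.93 in LP and 4.70 and 11.1 in HP. Its log2 ratio was 1.75 with an adjusted p of 0.0474 by limma with Benjamini-Hochberg adjustment, and its region is shared with the start of Cdc45. With the replicate number as a block, 0 of 79 were called. The next highest were Ppib, a prolyl isomerase, at 1.65 (adjusted p of 0.0514 by limma), and Edem2, which trims mannose from misfolded glycoproteins, at 1.59 (adjusted p of 0.0575 by limma). The lowest were Wfs1, Chac1 and Asns, with log2 ratios of −0.26, −0.075 and 0.12 and adjusted p of 0.654, 0.897 and 0.841 by limma. Chac1 and Asns are targets of Atf4.

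By arm, the PERK and ATF4 genes had a median log2 ratio of 0.66 over 23 promoters, with HP below LP in replicate 1 at 15. The IRE1 and XBP1 genes had 0.81 over 22, with HP below LP in replicate 1 at 6. The ATF6 and chaperone genes had 0.85 over 21, also with 6. The genes of degradation had 0.67 over 13, with 7. In replicate 2 HP was above LP at every promoter of the 4 arms, and over all promoter regions HP was below LP at only 0.935%. Both HP libraries lay above both LP libraries at 7, 14, 12 and 5 genes of the arms in this order. Over all promoter regions the share with HP below LP in replicate 1 was 19.2%, and that with both HP libraries above both LP libraries was 73.9%. Differences between arms were not tested. In the group of highest level, 31 list genes had both HP libraries above both LP libraries 11 times and HP below LP in replicate 1 at 20 genes. Over all promoter regions of that group the shares were 60.8% and 38.1%.

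**Figure D5:**
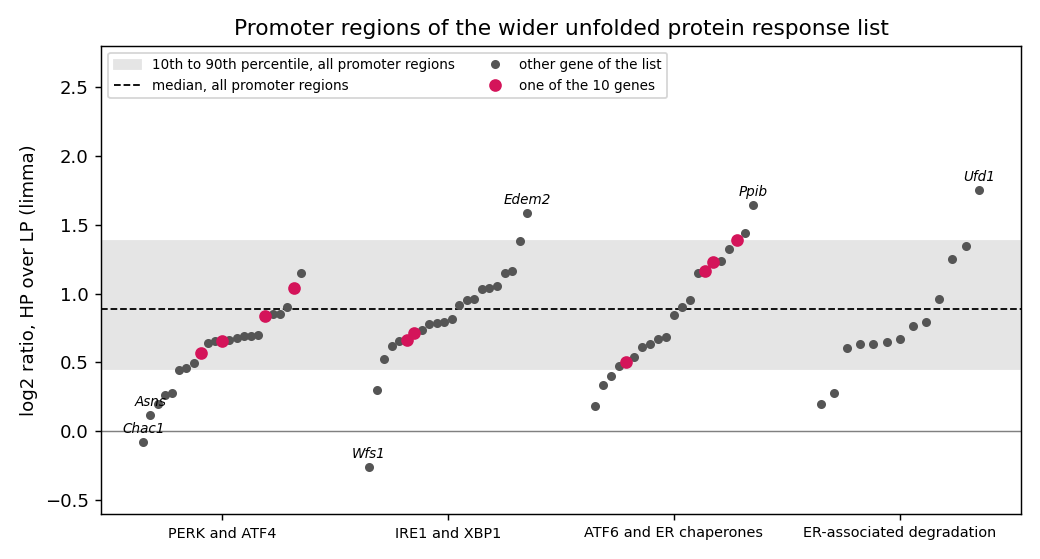
Log2 ratio of HP over LP by limma at the promoter regions of 79 genes of the wider list, by arm and ordered by value within each arm. Red points are the 10 genes, the dashed line is the median of all promoter regions (0.89) and the grey band their 10th to 90th percentile (0.45 to 1.38). Ufd1 is the 1 gene with an adjusted p at most 0.05.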

How the data were processed

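H3K27ac peak lists of 2 LP and 2 HP libraries were used, and the IgG libraries were not analysed here on their own. Per the submitters' processing notes, reads were demultiplexed with bcl2fastq 2.20, trimmed with Trimmomatic 0.33 and aligned to mm10 with Bowtie2 2.5.1. The authors called narrow peaks in each library with MACS 3.0.0b1 at a q-value of 0.05, keeping duplicates, with the IgG library of that replicate number as control. The pileup signal was deposited as whole fragments at the summit, without scaling. The fold enrichment ratio, the −log10 p-value and q-value and the score of each peak are also the authors' own, and served only for ranks and filters. Kept duplicates mean that fragments need not be independent molecules.

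Peaks of the 4 lists that shared at least 1 bp were merged. Limma 3.58.1 in R 4.3.3 compared log2 scaled pileup between HP and LP over regions called in all 4 libraries, by group only, with Benjamini-Hochberg adjustment and a threshold of 0.05. Its prior degrees of freedom were infinite, so every region had the same standard error. The labels give equal starting DNA within a replicate set, so replicate numbers pair the libraries, and the block was an alternative. Replicate differences in LP and HP correlated at 0.0153 over regions. A region's promoter status came from GENCODE for GRCm38. All 10 genes, their regions in 2 or more libraries and, of the wider list, called genes and the 3 highest and 3 lowest ratios are named, except 1 region that is not reported here. The members and lists were chosen with earlier results of these data known. Merging and the fit were run on made-up data only to check the code. How often the fit misses or wrongly calls a change in these libraries was not tested. DiffBind needs reads and was not run. Tables and plots were made with pandas 2.3.3, numpy 2.4.6, scipy 1.17.1 and matplotlib 3.10.9 in Python 3.11.15.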

Additional observations from a re-analysis of the deposited data

How the results depend on the processing

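Depth and scaling limit these values. Of 120 ratios of the 10 promoters with a test, 102 kept direction and side of the threshold and 13 reversed. The rest came from leaving out HP replicate 1. Not all 120 were new fits. A promoter window of 3 kb and the use of all transcripts picked the same regions from the main fit, so their 10 ratios each repeat it. The replicate block and a q-value of at most 0.01 left each ratio unchanged. The direction kept under these settings is no separate support. Of 20 ratios of single libraries with no test 15 kept direction and 5 reversed. When libraries were centred on their medians, the ratios of Atf4 (−0.44), Ddit3 (−0.17), Trib3 (−0.35), Ern1 (−0.30), Xbp1 (−0.35) and Hspa5 (−0.51) reversed, as did the medians of the 10 genes (−0.23) and of the wider list (−0.31). With quantile normalization the same 6 genes reversed (−0.078, −0.079, −0.35, −0.20, −0.0038 and −0.32), with medians of −0.041 and −0.079. Both alternatives remove the shift shared by most regions by construction.

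Regions called higher in HP numbered 485, and 0 when centred, quantile normalized or summarised by mean pileup, 9 when scaled also by fragment length, 88 with the replicate block, and 0 to 6940 when leaving out 1 library. The highest count, 6940 of 12322 regions (56.3%), was that without HP replicate 1. Under each of these settings except leaving out a library, the wider list had 0 calls in place of 1, and leaving out a library gave 0 to 38. The 10 genes had 0 calls except in that same setting, where 5 were called by limma: Ddit3 (1.22, adjusted p 0.0402), Atf6 (1.85, 0.00358), Hspa5 (1.27, 0.0337), Hsp90b1 (1.78, 0.00461) and Calr (1.92, 0.00258). The lone HP library is there assumed to vary like LP, and the value for Ddit3 is that of the summit near the Mbd6 start. Without HP replicate 2 Hspa5 reversed to −0.27. Leaving out either replicate number, single libraries gave −0.12 (without replicate 2) to 1.26 (without replicate 1) at Atf4, −0.088 to 1.76 at Ddit3, −0.16 to 1.49 at Xbp1, −0.095 to 2.42 at Atf6 and −0.29 to 1.30 at Hspa5. The replicate block changed no call of the 10 genes. The cause was not tested.

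Regions called in HP and not in LP numbered 4, and 4 to 23 when leaving out a library or replicate number, since fewer lists then had to hold or lack a peak (23 without HP replicate 1 or replicate 1, 14 without HP replicate 2 and 16 without replicate 2). Regions called in LP and not in HP numbered 2, and 2 to 14 under the same settings. Shares over all protein-coding windows were computed for the main setting only, at 4.61% for HP and 0.256% for LP.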
